A study of Homo sapiens with 12 samples.

Results

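The 9 genes described here encode parts of the complement system. They are the central component C3, the terminal component C5, the alternative-pathway protease CFB, the classical-pathway proteases C1R and C1S, the soluble inhibitors SERPING1 and CFI, and the membrane-bound inhibitors CD55 and CD59. They were taken by symbol from a table of read counts, in which each of the 9 had 1 row among 10945 rows with a gene symbol. The 12 libraries came from HepG2, an established human liver tumour line used as a hepatocyte model, labelled wild type. All cells were seeded in EMEM and moved 24 h later to 1 of 4 media, each with 10% heat-inactivated fetal bovine serum, so every group was exposed to bovine serum proteins. The media were EMEM, in which the line had also been maintained with pyruvate and glutamine, DMEM with low glucose (LGDMEM), DMEM with high glucose (HGDMEM) and Plasmax, a medium formulated after human plasma, with 3 libraries for each. Cells were harvested 96 h after the change of medium, with fresh medium at 48 h. RNA was sequenced with a kit that reads the 3′ ends of polyadenylated transcripts, so a count reports transcript abundance and not protein secreted, deposited or active.

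Complement is a cascade of plasma proteins, most of them made by hepatocytes, that marks surfaces for uptake and can pierce membranes. The classical route starts with C1R and C1S, the alternative route uses CFB, and both cleave C3 and then C5, whose fragment C5b starts the membrane attack complex. Host cells hold the cascade in check with soluble inhibitors and with surface proteins such as CD55, which takes apart the enzymes that cleave C3 and C5, and CD59, which blocks the last step of pore assembly. CD55 and CD59 are held on the membrane by a glycosylphosphatidylinositol (GPI) anchor.

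Sequences upstream of the transcription start are shown for the members called higher in Plasmax against any other medium whose window was at hand. CFB is among them only through its call against LGDMEM, which was lost in 8 of 20 settings. RefSeq windows on GRCh38.p14 were matched by symbol for 6 of the 9 members, and each line gives the 250 bases before the start nearest to the gene's start in GENCODE v29. C5 has 2 annotated starts in that table and CD59 has 4. The coordinates are chr9:121050276-121050525 on the minus strand for C5, chr1:207321428-207321677 on the plus strand for CD55, chr11:33736480-33736729 on the minus strand for CD59 and chr6:31945845-31946094 on the plus strand for CFB. Capitals mark matches, on either strand, to the motifs named after the sequences.
C5: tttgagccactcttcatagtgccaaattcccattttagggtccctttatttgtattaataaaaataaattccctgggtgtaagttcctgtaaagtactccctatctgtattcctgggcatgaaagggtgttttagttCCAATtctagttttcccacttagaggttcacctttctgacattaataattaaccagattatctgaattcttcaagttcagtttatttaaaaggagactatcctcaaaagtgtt
CD55: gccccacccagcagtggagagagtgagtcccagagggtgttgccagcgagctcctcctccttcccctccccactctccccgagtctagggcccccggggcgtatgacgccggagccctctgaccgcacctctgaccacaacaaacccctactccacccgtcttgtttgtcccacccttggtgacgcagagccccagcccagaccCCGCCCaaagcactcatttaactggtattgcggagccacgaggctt
CD59: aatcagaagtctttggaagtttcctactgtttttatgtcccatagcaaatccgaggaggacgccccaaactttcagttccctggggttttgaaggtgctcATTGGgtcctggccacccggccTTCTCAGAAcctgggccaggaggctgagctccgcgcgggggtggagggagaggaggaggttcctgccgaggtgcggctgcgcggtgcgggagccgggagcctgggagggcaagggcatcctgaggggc
CFB: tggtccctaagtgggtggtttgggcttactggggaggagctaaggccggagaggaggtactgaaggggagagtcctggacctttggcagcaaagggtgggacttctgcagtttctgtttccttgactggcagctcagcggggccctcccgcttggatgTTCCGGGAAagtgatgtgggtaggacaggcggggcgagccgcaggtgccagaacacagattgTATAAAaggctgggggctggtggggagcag

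No motif among those searched was found in all 4 windows. C5 and CD59 both held a CCAAT box, and CD59 and CFB both held a STAT-type site. A CCAAT box also stood 199 to 195 bases before the start of CFI, which was not called in any comparison. The window of C1R, likewise not called, held a C/EBP site 106 to 99 bases before the start. These windows of CFI and C1R are not printed. The C5 window, at 34.8% G and C against a median of 58% over 34788 windows, held a CCAAT box (CCAAT) 113 to 109 bases before the start. CD55 held a GC box (GGGCGG, here on the minus strand) 46 to 41 bases before the start. CD59 held a CCAAT box 150 to 146 bases and a STAT-type site (TTCNNNGAA) 128 to 120 bases before the start. CFB held a TATA box (TATAAA) at 30 to 25 bases and a STAT-type site at 92 to 84 bases. No match was found in these 4 windows to the cAMP response element (TGACGTCA), the AP-1 site (TGANTCA), the C/EBP site (TTGCNNAA) or the E-box (CACGTG). Of all windows of this length, 42.6% held the GC box, 32.0% the CCAAT box, 10.8% the TATA box and 6.57% the STAT-type site. The other shares were 1.64% for the cAMP element, 6.59% for AP-1, 9.05% for C/EBP and 6.31% for the E-box. A match is a match of letters, not a bound site.

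Named rows held 3995365 to 5840057 counts per library. Expression is given in CPM, the count scaled to a common library size after TMM normalization, and a gene is said to be called where the adjusted p of edgeR's quasi-likelihood test was below 0.05 over all 10945 genes. Nothing in the labels tells whether replicates were grown as separate cultures, so the spread behind each p-value may be technical. LGDMEM 3 stood apart from the other libraries on the second principal component of all genes, at -51.8 against -11.0 to 14.7. All 13 liver markers examined were measured. They summed to 31378 to 31633 CPM in EMEM, 29644 to 33632 in LGDMEM, 32785 to 36258 in HGDMEM and 17240 to 19280 in Plasmax. Called higher and lower in Plasmax were 0 and 8 of them against EMEM, 3 and 7 against LGDMEM and 1 and 7 against HGDMEM. Of all genes, 10%, 9.48% and 12.8% were called higher and 12.1%, 11.7% and 14.1% lower in the same order. ALB gave 28.7% of the summed liver marker level over all libraries. Of 12 leukocyte markers, 9 including PTPRC were not among the rows analysed, and LYZ gave 99.6% of the counts of the other 3. LYZ was lower in Plasmax than in EMEM (log2 -0.51, edgeR adjusted p = 0.00506), while CD68 was called higher in that comparison, at 5.77 against 2.24 CPM (adjusted p = 0.0333), but not without EMEM 2 (0.0694), EMEM 3 (0.129) or Plasmax 2 (0.123). Of 12 endothelial and stromal markers, 9 including PECAM1, VWF and COL1A2 were not among the rows analysed, and the summed level of the other 3 was 69.4 to 94.9 CPM in Plasmax against 43.9 to 59.5 in EMEM, 34.2 to 57.2 in LGDMEM and 48.8 to 65.4 in HGDMEM. ACTA2 gave 82.1% of those counts and was called higher in Plasmax against EMEM (log2 0.81, edgeR adjusted p = 0.0202) and LGDMEM (1.14, 0.00252). PDGFRB was called lower against EMEM (-1.59, 0.0290), LGDMEM (-1.74, 0.0189) and HGDMEM (-1.38, 0.0496), with the last 2 calls lost in 4 and 14 of 22 settings. Against HGDMEM, 1 of the 3 markers was called higher and 1 lower. The call against EMEM was lost for ACTA2 without EMEM 1 (0.0954), Plasmax 1 (0.0561) or Plasmax 3 (0.0902), and for PDGFRB without EMEM 2, EMEM 3 or any 1 of the Plasmax libraries (0.0575 to 0.0907). The part of these markers in the members' changes was not tested.

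C5, CD55 and CD59 were higher in Plasmax than in each of the other 3 media, and no member was called lower. Against EMEM, 3 of the 9 members were called higher (C5, CD55 and CD59), where 10% of all genes were called higher, 12.1% lower and 22.1% in either direction. Against LGDMEM, 4 were called higher, the same 3 and CFB, with 9.48% of all genes called higher, 11.7% lower and 21.2% in all. Against HGDMEM, 4 were called higher, the same 3 and SERPING1, with 12.8% of all genes called higher, 14.1% lower and 26.9% in all. The median log2 fold change of the 9 members was 0.48 against EMEM, 0.51 against LGDMEM and 0.79 against HGDMEM, and that of all genes was 0.02, 0.00 and 0.01. The 3 comparisons share the Plasmax libraries and so are not independent of each other. In the test for any difference among the 4 media, C5, CD55 and CD59 were called, with 22.9% of all genes called.

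**Figure D1:**
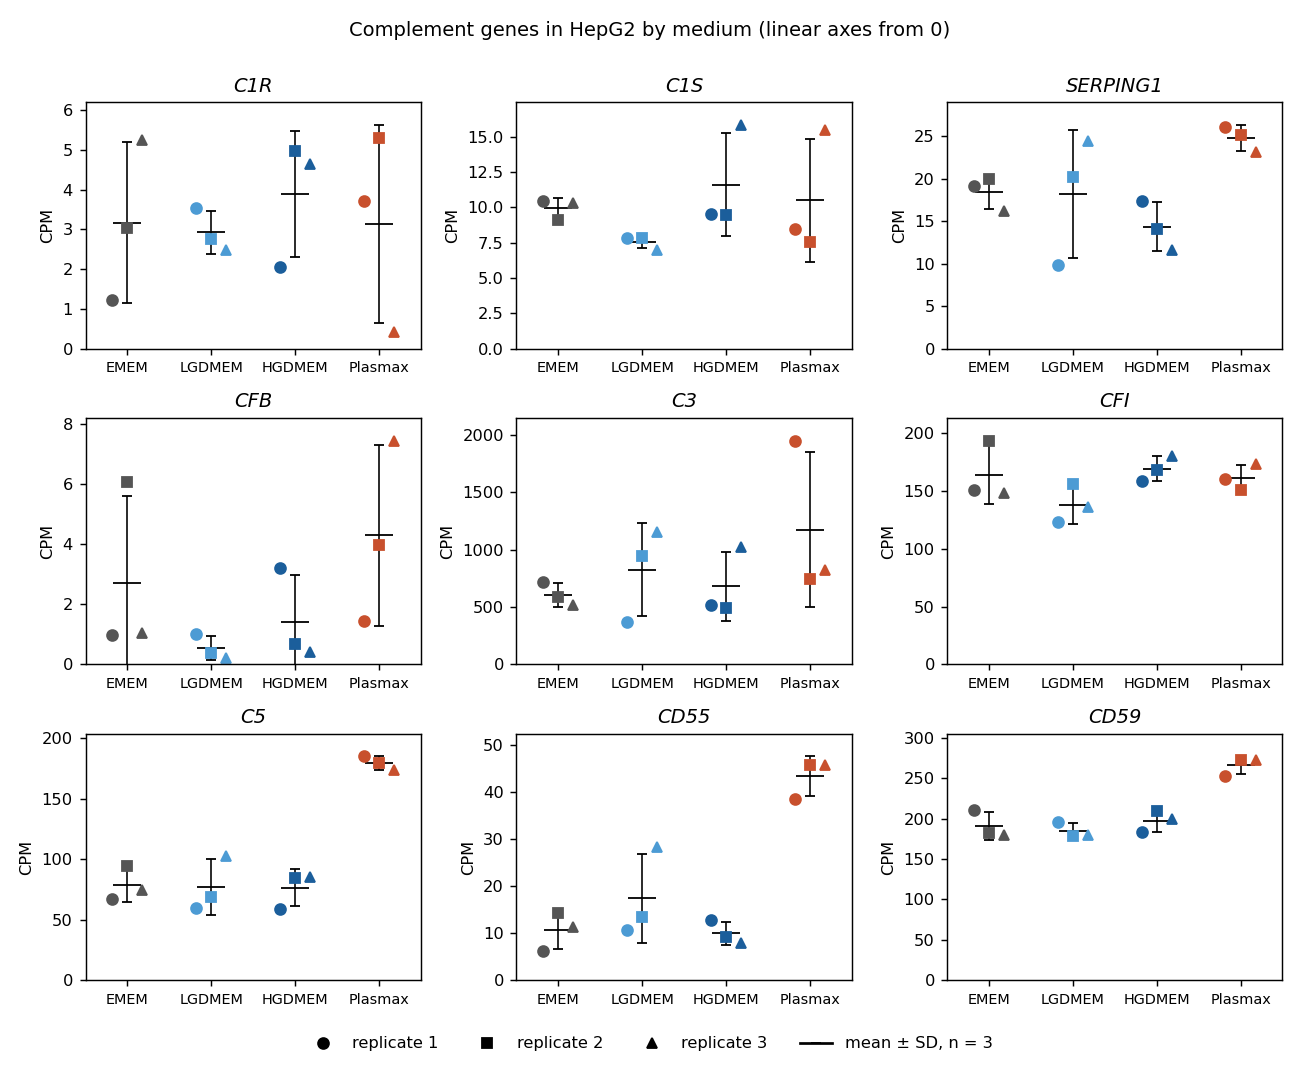
Transcript level of each member (vertical axis, CPM after TMM scaling, from 0) in the 12 libraries by medium, with points for libraries, a bar for the mean and an error bar for the SD of 3 libraries, cut off at 0. C5, CD55 and CD59 have all 3 Plasmax points above the 9 others, and the 3 Plasmax points of C3 lie between 746 and 1949 CPM.

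**Figure D2:**
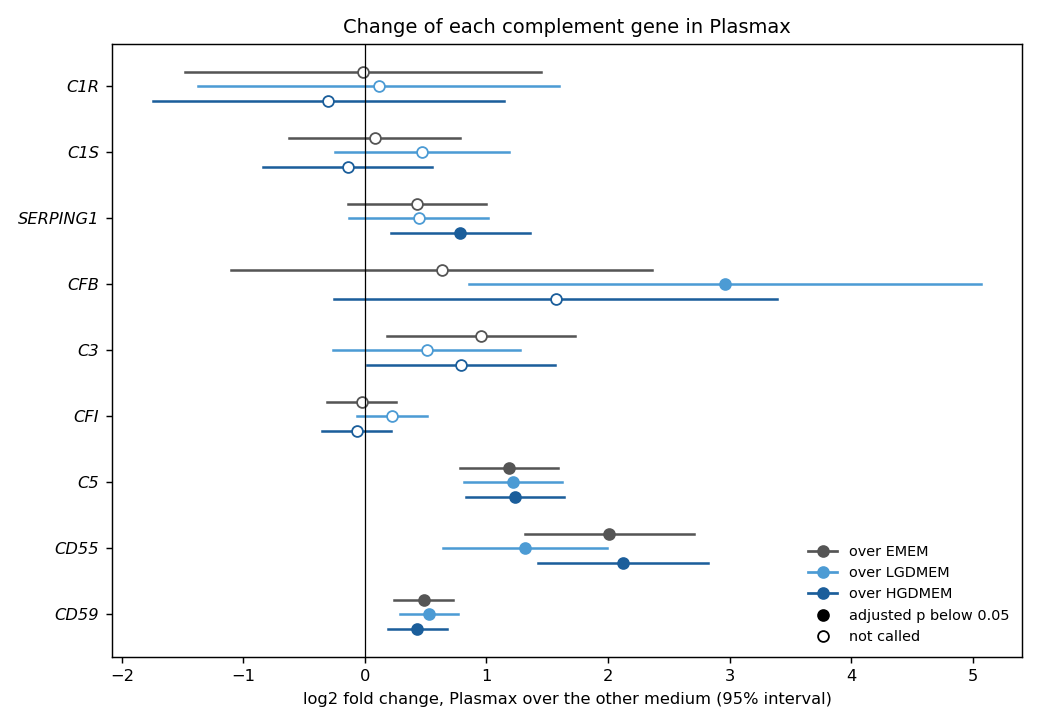
Log2 fold change of each member (horizontal axis) in Plasmax against each of the other 3 media, with 95% intervals, 1 colour per medium and filled points where the adjusted p was below 0.05. C5 lies between 1.19 and 1.23 in the 3 comparisons, while the intervals of C1R and of CFB against EMEM span 0 widely.

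C5, the substrate of the C5 convertases and the source of the C5a peptide, had 67.2, 94.2 and 74.9 CPM in EMEM, 59.6, 68.4 and 103 in LGDMEM, 58.7, 84.7 and 85.7 in HGDMEM, and 185, 179.5 and 174 in Plasmax. The 3 Plasmax libraries lay above all 9 others and close together, with a coefficient of variation of 3.04% against 17.6% to 29.7% in the other media. The rise was 2.27-fold against EMEM (log2 1.19, SE 0.19, edgeR adjusted p = 0.000257), 2.33-fold against LGDMEM (adjusted p = 0.000198) and 2.35-fold against HGDMEM (adjusted p = 0.000118). Among EMEM, LGDMEM and HGDMEM the means stood at 76.4 to 78.8 CPM, and the 3 log2 differences between them lay between -0.05 and -0.01. C5 kept its call against each medium in all 22 settings run. Without LGDMEM 3, its highest library outside Plasmax, the log2 fold change against LGDMEM was 1.48.

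CD55, also called decay-accelerating factor, moved furthest of the 3. It had 6.31, 14.2 and 11.4 CPM in EMEM, 10.6, 13.4 and 28.3 in LGDMEM, 12.8, 9.27 and 7.83 in HGDMEM, and 38.5, 45.9 and 45.9 in Plasmax. All Plasmax libraries were above the other 9, the nearest being LGDMEM 3. The rise was 4.03-fold against EMEM (95% interval 2.48 to 6.54, edgeR adjusted p = 0.000309), 2.49-fold against LGDMEM (1.56 to 3.97, adjusted p = 0.00671) and 4.35-fold against HGDMEM (2.68 to 7.06, adjusted p = 0.000130). Leaving out LGDMEM 3 took the log2 fold change against LGDMEM from 1.32 to 1.85, and leaving out LGDMEM 1 took it to 1.07, with the call kept in all 22 settings.

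CD59, also called protectin, had a smaller and tighter rise. Its values were 210.2, 182 and 179 CPM in EMEM, 196, 179 and 179.8 in LGDMEM, 183, 209.7 and 199 in HGDMEM, and 253, 272 and 273 in Plasmax. No library of the other 3 media reached the lowest Plasmax library. The log2 fold change was 0.48 against EMEM (SE 0.12, edgeR adjusted p = 0.00549), 0.53 against LGDMEM (SE 0.12, adjusted p = 0.00313) and 0.43 against HGDMEM (SE 0.11, adjusted p = 0.00915), and every one of the 22 settings kept the call in each comparison. With C5 and CD55, CD59 made up the 3 of 9 members whose Plasmax libraries lay above the other 9, a pattern found in 10.9% of all genes. These 3 were also the members called higher against each of the other media, as were 5.83% of all genes.

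The change of CD55 relative to CD59 was compared through the log2 ratio of the pair, read only as a difference between media. The ratio was -2.61 ± 0.08 in Plasmax, -4.18 ± 0.70 in EMEM, -3.50 ± 0.77 in LGDMEM and -4.28 ± 0.42 in HGDMEM (SD, n = 3). LGDMEM 3, at -2.65, lay within the Plasmax range of -2.70 to -2.56, while all EMEM and HGDMEM libraries lay below it. The difference was 1.57 against EMEM (exact two-sided permutation p = 0.1, n = 3 each), 0.89 against LGDMEM (exact p = 0.2) and 1.67 against HGDMEM (exact p = 0.1). With 3 libraries against 3 the smallest possible p is 0.1, and the values adjusted over 6 such tests were 0.3, 0.4 and 0.3.

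**Figure D3:**
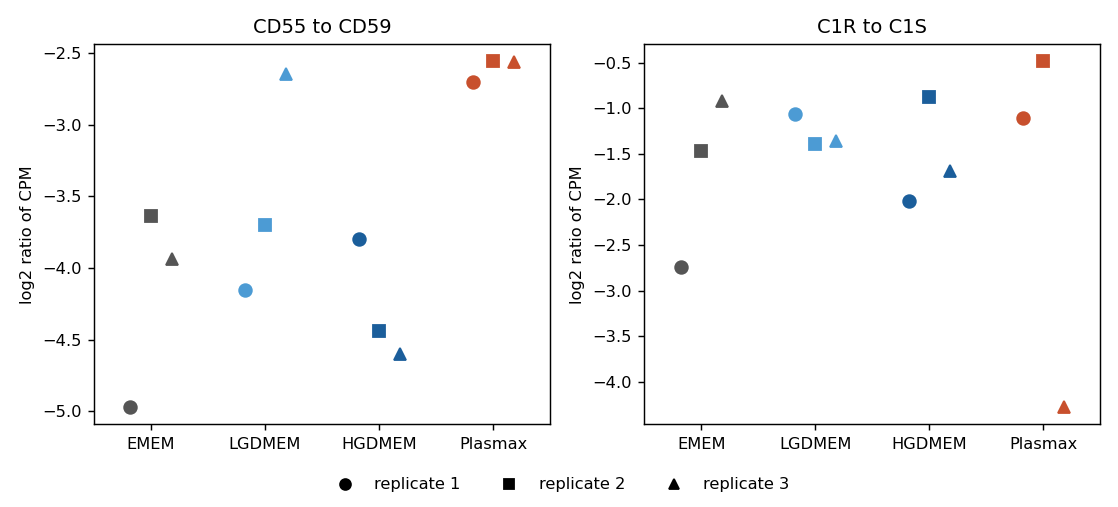
Log2 ratio (vertical axis) of CD55 to CD59 and of C1R to C1S in each of the 12 libraries by medium, with 1 point per library and the marker shape for the replicate. The 3 Plasmax points for CD55 to CD59 lie between -2.70 and -2.56, and 1 Plasmax point for C1R to C1S lies at -4.28.

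C3, where the routes of activation meet, varied widely between libraries of the same medium, with a coefficient of variation of 44.4% to 57.6% in LGDMEM, HGDMEM and Plasmax and 17.2% in EMEM. It had 719, 585 and 513 CPM in EMEM, 371, 946 and 1152 in LGDMEM, 515, 494 and 1025 in HGDMEM, and 1949, 746 and 819 in Plasmax. All Plasmax libraries were above those of EMEM, but 2 of them lay within the range of LGDMEM and of HGDMEM. The log2 fold change was 0.95 against EMEM (SE 0.37, edgeR adjusted p = 0.0727), 0.51 against LGDMEM (adjusted p = 0.353) and 0.79 against HGDMEM (adjusted p = 0.124). The value rested largely on Plasmax 1: without it the log2 fold changes were 0.37, -0.07 and 0.21. C3 was called against EMEM when only the 2 media were fitted (adjusted p = 0.00766) and without LGDMEM 1 (0.0250), LGDMEM 3 (0.0486) or Plasmax 2 (0.0458), and against HGDMEM without HGDMEM 3 (0.0356).

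CFB, the protease that forms the alternative-pathway convertase with C3b, was at low counts. Its libraries held 4, 34 and 5 reads in EMEM, 4, 2 and 1 in LGDMEM, 17, 4 and 2 in HGDMEM, and 7, 21 and 36 in Plasmax. The Plasmax libraries lay above those of LGDMEM and overlapped those of EMEM and HGDMEM, each of which had 1 library well above its other 2. Every row analysed reached 2.51 CPM in at least 3 libraries. Outside Plasmax, CFB reached that level only in EMEM 2 (6.05 CPM) and HGDMEM 1 (3.19 CPM). Its presence among the rows thus rested in part on Plasmax, and a higher call there is conditional on that selection. The log2 fold change was 2.96 against LGDMEM (SE 1.00, 95% interval 0.86 to 5.07, edgeR adjusted p = 0.0422), 0.63 against EMEM (adjusted p = 0.642) and 1.57 against HGDMEM (adjusted p = 0.200). Without EMEM 2 the value against EMEM was 2.06, and against HGDMEM it was 2.90 without HGDMEM 1 and 0.92 without Plasmax 3. The call against LGDMEM was lost in 8 of 20 settings, among them a fit with a replicate block (adjusted p = 0.0537), limma voom (0.123) and the fits without LGDMEM 1 (0.0534), LGDMEM 2 (0.119), LGDMEM 3 (0.110), Plasmax 2 (0.0738) or Plasmax 3 (0.168).

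SERPING1, the C1 inhibitor that inactivates C1R and C1S, had 19.2, 19.9 and 16.2 CPM in EMEM, 9.84, 20.2 and 24.5 in LGDMEM, 17.4, 14.1 and 11.6 in HGDMEM, and 26.2, 25.2 and 23.2 in Plasmax. The Plasmax libraries lay above all of EMEM and HGDMEM, and LGDMEM 3 lay among them. The log2 fold change was 0.79 against HGDMEM (SE 0.27, edgeR adjusted p = 0.0407), 0.43 against EMEM (adjusted p = 0.283) and 0.44 against LGDMEM (adjusted p = 0.271). The call against HGDMEM was lost in 7 of 22 settings, with an adjusted p of 0.0501 with a replicate block, 0.0981 without HGDMEM 2, 0.145 without HGDMEM 3, and 0.0986, 0.0896 and 0.0659 without Plasmax 1, 2 and 3.

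CFI, the serum protease that cleaves C3b and C4b with the help of cofactors, had the narrowest relative range of the soluble members, with all 12 libraries between 123 and 194 CPM. It stood at 151, 194 and 148 CPM in EMEM, 123, 156 and 136 in LGDMEM, 159, 168 and 181 in HGDMEM, and 160.5, 151 and 174 in Plasmax. Plasmax overlapped each of the other media. Its log2 fold changes were -0.03 (95% interval -0.31 to 0.26) against EMEM, 0.22 (-0.06 to 0.51) against LGDMEM and -0.07 (-0.35 to 0.22) against HGDMEM, with edgeR adjusted p of 0.924, 0.269 and 0.763. These intervals leave out a rise of the size seen for C5.

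C1S, which cleaves C4 and C2, was not called in any comparison. Its values were 10.4, 9.08 and 10.3 CPM in EMEM, 7.82, 7.86 and 7.02 in LGDMEM, 9.56, 9.43 and 15.9 in HGDMEM, and 8.44, 7.58 and 15.5 in Plasmax. HGDMEM 3 and Plasmax 3 stood above the other 10 libraries, and all LGDMEM libraries lay below those of EMEM. C1R, which activates C1S, held 2 to 30 reads per library. Plasmax held both its highest level, 5.31 CPM in Plasmax 2, and its lowest, 0.413 CPM from 2 reads in Plasmax 3. The log2 fold changes of C1R in Plasmax lay between -0.30 and 0.11. The intervals against EMEM (-1.48 to 1.45) and LGDMEM include a rise of the size seen for C5. Such a change of C1R against these 2 media could neither be seen nor be left out with these counts and this spread between libraries. The interval against HGDMEM (-1.74 to 1.14) ended a little below the C5 value of 1.23. The log2 ratio of C1R to C1S differed by -0.25, -0.69 and -0.43 between Plasmax and EMEM, LGDMEM and HGDMEM (exact two-sided permutation p = 0.9 in each, n = 3), and these differences turned positive without Plasmax 3, at 0.91, 0.48 and 0.73.

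Between EMEM, LGDMEM and HGDMEM no member was called by edgeR, DESeq2 or limma voom. The background was low as well, at 0.0731% of genes for LGDMEM against EMEM, 0.164% for HGDMEM against EMEM and 0.064% for HGDMEM against LGDMEM. At an unadjusted p below 0.05, edgeR gave 1 member for LGDMEM against EMEM (7.91% of all genes), 0 for HGDMEM against EMEM (7.58%) and 2 for HGDMEM against LGDMEM (7.86%). These were CFB, with a log2 fold change of -2.33 for LGDMEM against EMEM (edgeR adjusted p = 0.590) that was -0.90 without EMEM 2 and -3.04 without LGDMEM 1, CD55, with -0.81 for HGDMEM against LGDMEM (adjusted p = 0.583), and CFI, with 0.29 in that comparison (adjusted p = 0.632). By mean level, Plasmax stood first for C3, C5, CFB, SERPING1, CD55 and CD59, while HGDMEM stood first for CFI, C1R and C1S. LGDMEM was the lowest of the 4 media for CFB, CFI, C1R, C1S and CD59. Within LGDMEM, replicate 1 was the lowest and replicate 3 the highest library for C3, C5, SERPING1 and CD55.

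Of 60 complement genes listed, members included, 29 were measured. Called higher and lower were 8 and 3 of the 29 against EMEM, 9 and 3 against LGDMEM and 8 and 4 against HGDMEM, and their median log2 fold changes were 0.26, 0.46 and 0.14. Of all genes, 10%, 9.48% and 12.8% were called higher and 12.1%, 11.7% and 14.1% lower in the same order, so the lower calls were near the share of all genes. C2, the classical and lectin route's counterpart of CFB, was called higher against all 3 media. It stood at 199, 214 and 227 CPM in EMEM, 162 to 215 in LGDMEM, 173 to 196 in HGDMEM, and 291, 308 and 265 in Plasmax, with no overlap. The log2 fold change was 0.44 (SE 0.13, edgeR adjusted p = 0.0188), 0.64 (adjusted p = 0.00145) and 0.64 (adjusted p = 0.00108) against EMEM, LGDMEM and HGDMEM. The call against EMEM was lost without EMEM 1 (0.0788), Plasmax 1 (0.0506) or Plasmax 2 (0.0766).

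CLU and CPN2 went the other way. CLU, or clusterin, a soluble inhibitor of the membrane attack complex, stood at 757, 844 and 898 CPM in EMEM, 599.7 to 683 in LGDMEM, 649 to 773 in HGDMEM, and 449, 336 and 318 in Plasmax. Every Plasmax library lay below every other library, and the log2 fold changes were -1.18, -0.78 and -0.94 against EMEM, LGDMEM and HGDMEM (SE 0.13 in each, edgeR adjusted p = 5.96e-06, 0.000407 and 4.29e-05). CPN2, the regulatory subunit of the carboxypeptidase that trims C5a and C3a, had log2 fold changes of -0.95, -0.87 and -1.42 in the same order, called in all 22 settings each. VTN, or vitronectin, another soluble inhibitor of the membrane attack complex, was higher in Plasmax, at 17.7, 25.2 and 21.3 CPM against 11.2, 8.90 and 11.4 in EMEM and 4.30 to 11.9 in LGDMEM. Its log2 fold change was 1.51 against LGDMEM (edgeR adjusted p = 0.00277), 1.03 against EMEM (adjusted p = 0.0246) and 0.68 against HGDMEM (adjusted p = 0.114). The VTN call against EMEM was lost without EMEM 1 (0.0560), EMEM 2 (0.0830), EMEM 3 (0.0532), Plasmax 2 (0.0975) or Plasmax 3 (0.0561). In Plasmax against HGDMEM, the comparison in which all 4 were called, the fluid-phase inhibitor SERPING1 and the membrane inhibitors CD55 and CD59 were higher. The fluid-phase inhibitor CLU was lower. C4BPB was also called lower there (log2 -0.42, edgeR adjusted p = 0.0380), a call lost in 5 of 22 settings. CPN1 was called lower against EMEM (-0.87, adjusted p = 0.0137), a call lost in 3 of 22.

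Terminal genes other than C5 were at low counts, and 4 of 6 listed were measured. None was called against EMEM, with log2 fold changes from -1.19 for C8B to 0.13 for C8A, and C8G was called lower against LGDMEM and HGDMEM from 16, 4 and 0 reads in Plasmax. C8G lost its call against LGDMEM without LGDMEM 1 (adjusted p = 0.105), Plasmax 2 (0.0941) or Plasmax 3 (0.0645), and against HGDMEM in 10 of 21 settings, including the fits without any 1 library of HGDMEM or EMEM and those without Plasmax 2 or Plasmax 3. C5AR1, the receptor for C5a, held 63, 58 and 21 reads in Plasmax, 1, 18 and 8 in EMEM, 8, 4 and 18 in LGDMEM and 1, 0 and 6 in HGDMEM. Its Plasmax libraries lay above all others. It was called higher against HGDMEM (edgeR adjusted p = 0.00231) and EMEM (adjusted p = 0.0380), not against LGDMEM (adjusted p = 0.0748). Every row analysed reached 2.51 CPM in at least 3 libraries. Outside Plasmax, C5AR1 reached that level only in LGDMEM 3 (4.08 CPM) and EMEM 2 (3.20 CPM). Its presence among the rows thus rested on Plasmax, and its higher calls are conditional on that selection. The call against EMEM was lost without EMEM 1 (0.134), EMEM 3 (0.104), Plasmax 1 (0.124) or Plasmax 2 (0.103). ITGB2, the shared beta chain of the integrin complement receptors, was called higher against all 3 media, at log2 fold changes of 0.80, 0.99 and 0.91 (edgeR adjusted p = 0.0280, 0.00924 and 0.0115). Its call was lost in 6, 1 and 3 of the 22 settings against EMEM, LGDMEM and HGDMEM, which were the fits without any 1 of the EMEM libraries, Plasmax 1 or Plasmax 2 (adjusted p up to 0.105), without LGDMEM 2 (0.0518) and without HGDMEM 1 or HGDMEM 2 (up to 0.0594), beside the threshold of 0.01.

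CD46, a membrane cofactor for CFI and the third membrane inhibitor beside CD55 and CD59, had log2 fold changes of 0.35, 0.46 and 0.24 against EMEM, LGDMEM and HGDMEM, and its call against LGDMEM (edgeR adjusted p = 0.0455) was lost in 10 of 22 settings, among them the fits without LGDMEM 1 (0.111), LGDMEM 2 (0.162), Plasmax 2 (0.139), Plasmax 3 (0.120), any 1 of the HGDMEM libraries or EMEM 3.

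**Figure D4:**
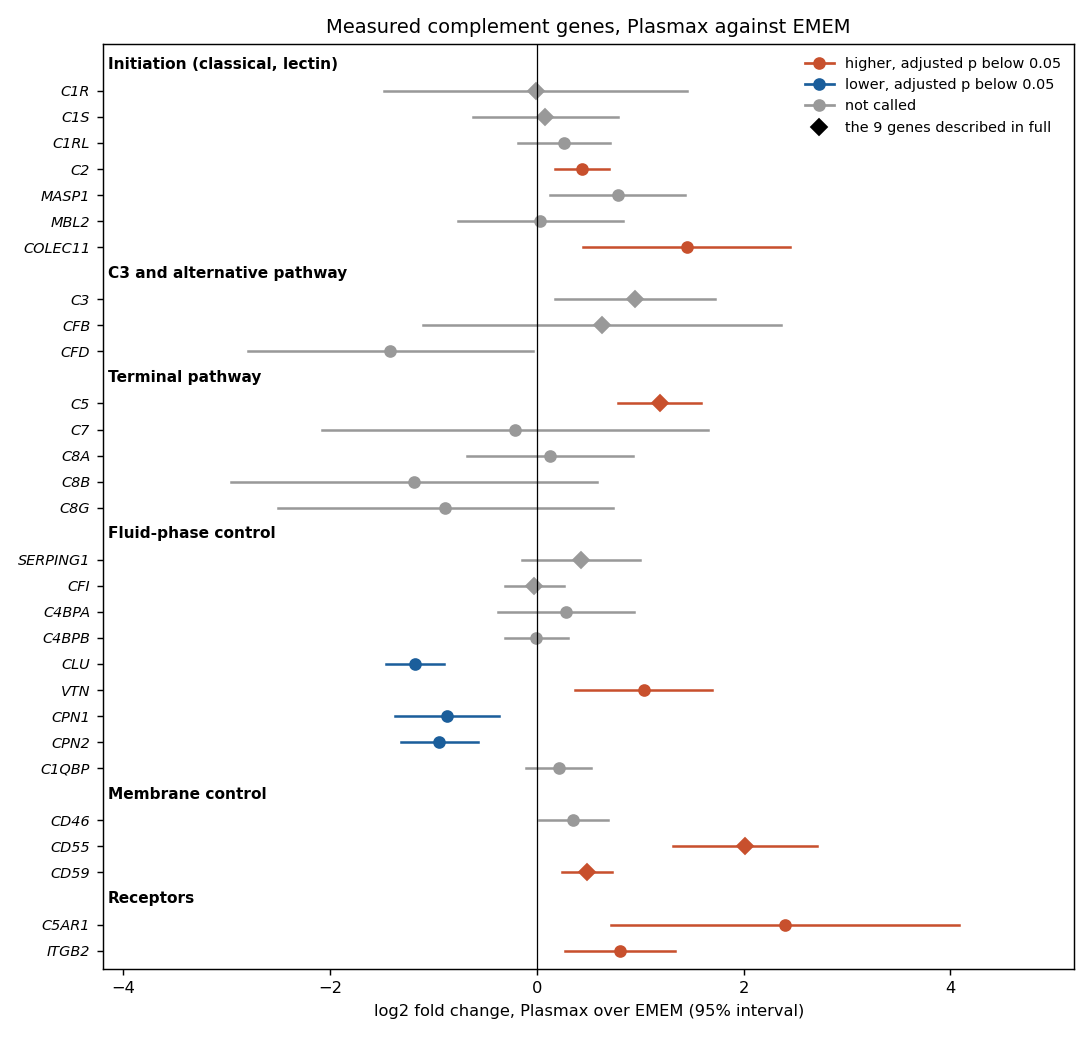
Log2 fold change in Plasmax against EMEM (horizontal axis, with 95% intervals) of the 29 measured complement genes, grouped by role, with diamonds for the 9 members and colour for an adjusted p below 0.05. The called genes include CD55 at 2.01 and C5 at 1.19 above 0 and CLU at -1.18 below it.

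Gene lists of pathways known to regulate or attach these proteins, and a list of hepatic protease inhibitors, were examined as well. In Plasmax against EMEM, 10% of all genes were called higher and 12.1% lower. For GPI anchor synthesis and attachment, the pathway that tethers CD55 and CD59, 3 of 28 measured genes were called higher in Plasmax against EMEM and 1 lower, with a median log2 fold change of 0.00, a count of higher calls near that of all genes. The counts were 3 and 1 against LGDMEM and 2 and 1 against HGDMEM. PIGM, a mannosyltransferase of the pathway, was called at 0.81 (edgeR adjusted p = 0.00538). For the response to interferon, 2 of 27 were called higher and 6 lower, with a median of -0.14, and the 2 higher were IFITM2 at 0.75 (adjusted p = 0.00515) and HLA-E at 0.51 (adjusted p = 0.0273). The HLA-E call was lost without EMEM 1 (0.0870), EMEM 2 (0.0869), Plasmax 1 (0.0755) or Plasmax 2 (0.0721). Of the 6 lower, ISG15 was at -1.07 (adjusted p = 0.0191) and PSMB8 at -0.81 (adjusted p = 0.0283). Both calls were lost without EMEM 1 (0.0667 and 0.0640) or Plasmax 3 (0.0802 and 0.0865), among other fits. The interferon counts were 2 higher and 3 lower against LGDMEM and 3 higher and 4 lower against HGDMEM. For IL-6, IL-1 and NF-kB signalling, 5 of 24 were called higher and 2 lower, with a median of 0.31. The 5 higher included SOCS3, a feedback inhibitor of IL-6 signalling, at 2.67 (adjusted p = 0.00332) and IL6R, the IL-6 receptor, at 1.29 (adjusted p = 0.00372). The 2 lower included NFKBIA at -0.51 (adjusted p = 0.0151), a call lost without EMEM 3 (0.0665) or Plasmax 3 (0.0809). The IL-6, IL-1 and NF-kB counts were 6 higher and 1 lower against LGDMEM and 11 higher and 2 lower against HGDMEM, where 9.48% and 12.8% of all genes were called higher. The hepatic protease inhibitors were relatives of SERPING1 and inhibitors of other families. Of 16 measured, 4 were called higher and 5 lower against EMEM, with a median of -0.19. The counts were 4 and 2 against LGDMEM and 5 and 6 against HGDMEM. Against EMEM, SERPINA3 was at 1.94 (edgeR adjusted p = 0.00174) and SERPINA1 at 0.57 (adjusted p = 0.000754), and SERPINA6 was at -1.84 (adjusted p = 6.57e-06).

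The genes whose pattern over the 12 libraries was most like that of a member were found by the root mean square difference of log2 CPM, each gene centred on its own mean, among 7842 other genes that averaged 10 CPM or more. For C5 these were LRP10, at 0.14, and C6orf48, at 0.16, where the median over all genes was 0.64. For CD55 they were S100P, at 0.25, and SLC7A11, at 0.30, against a median of 0.98, and for CD59 they were MTUS1, at 0.09, and MON1B, at 0.10, against 0.37. For C3 they were HUS1, at 0.36, and FBXW11, at 0.40, against a median of 0.69. The distances grow with a gene's own spread and counting error, so they are not to be compared between members.

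Several members overlap another gene of the count table in GENCODE v29, and how reads were divided there was not stated. C3 overlaps GPR108, CFB overlaps C2, C1R overlaps C1RL and C1S overlaps EMG1 on the same strand, while LPCAT3 overlaps C1S on the opposite strand. C5, CD55, CD59, CFI and SERPING1 overlap no other gene of the table. CD59 and CFI do overlap genes absent from it, AL049629.2 and AC126283.2, both protein-coding and on the same strand. How reads were divided there was not stated either.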

How the data were processed

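The authors deposited 1 table of raw counts per gene, made on build hg19/GRCh37 per the submitters' processing notes, which list STAR 2.7.5b, featureCounts 1.6.3, limma 3.40.6, cutadapt 1.16 and FastQC 0.72 with no role. Of 11546 rows, 601 without a symbol (2.92% to 3.71% of counts) did not enter library sizes or tests. In each of the remaining 10945 rows the third highest CPM was at least 2.51, so a filter on low counts had been applied before deposit, and 31 of 60 listed complement genes were not analysed here. Computed from these counts were edgeR 4.0.16 quasi-likelihood tests (R 4.3.3, TMM scaling, 12 libraries in 1 fit without a block, Benjamini-Hochberg over 10945 genes, threshold 0.05). edgeR's filter removed 0 genes, so all 9 members were tested. The SE is the log2 fold change over the square root of F. The common dispersion corresponded to a biological coefficient of variation of 0.215, and there were 8 residual degrees of freedom. On simulated counts, in Plasmax against EMEM with 10874 genes, the test recovered 60 of 100 genes changed by 1 on the log2 scale. It recovered 100 of 100 changed by 2 and made 9 false calls. The changes were set only in genes above a minimum level, and the dispersion was the same for all genes. The rates therefore do not cover low-count members such as CFB and C1R. Ratios were compared by exact permutation. The alternatives were other scalings and filters, DESeq2 1.42.0, limma voom 3.58.1, a replicate block, fits of only the 2 media compared, a threshold of 0.01 and leaving out each library. The members and lists were chosen with earlier results of these data known. Any measured complement gene could be named, and of other lists up to 4 called genes with the smallest adjusted p in Plasmax against EMEM, and for each member the 2 genes with the most similar profile.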

Additional observations from a re-analysis of the deposited data

How the results depend on the processing

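The number of members called in each of the 6 comparisons and in the test over the 4 media stayed within 1.5 times of its value in all 153 recomputed counts. That margin takes in a change between 3 and 4 members. Of the members' log2 fold changes, 617 recomputed values kept direction and side of the threshold, 15 lost the call (8 of CFB against LGDMEM and 7 of SERPING1 against HGDMEM), 5 gained it (all of C3) and 14 turned sign, none of them from a called value. C1R against EMEM was 0.00423 with library-size scaling, and C1R against LGDMEM was -0.40 with limma voom. Leaving out each library gave -0.073 to 0.83 for C3 against LGDMEM, -0.018 to 2.06 for CFB against EMEM and 0.92 to 2.90 against HGDMEM, -3.04 to -0.90 for CFB in LGDMEM against EMEM, -0.10 to 0.11 for CFI against EMEM, -0.62 to 0.54, -0.50 to 0.63 and -0.91 to 0.21 for C1R against EMEM, LGDMEM and HGDMEM, and -0.31 to 0.27 and -0.53 to 0.14 for C1S against EMEM and HGDMEM. The ratio of C1R to C1S ranged from -0.98 to 0.91, -1.42 to 0.48 and -1.17 to 0.73. The cause was not tested. Replicate numbers are shared between media. Deviations of same-numbered libraries correlated at -0.04 to 0.03 over all genes between Plasmax and the other media (-0.12 to 0.14 over 4366 expressed genes), and no comparison had all 3 numbers above 0.1 over all genes. Over the expressed genes all 3 exceeded 0.1 between HGDMEM and LGDMEM (0.25, 0.17, 0.21) and between HGDMEM and EMEM (0.19, 0.11, 0.12), where edgeR called no member with or without the block. A replicate block ended the calls of CFB against LGDMEM (adjusted p = 0.0537) and SERPING1 against HGDMEM (0.0501) and changed no other call of a member. With 1 to 36 reads per library, CFB and C1R are limited by depth.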
